A study of Mus musculus with 9 samples.

Results

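Expression of 10 genes that define the epithelial-mesenchymal transition was followed across a bulk RNA-seq series of mouse embryonic lung. They were the 10 rows whose gene symbol is Snai1, Snai2, Zeb1, Zeb2, Twist1, Twist2, Prrx1, Vim, Cdh2 or Fn1, out of 55286 genes in the tables of expected counts and of TPM. All 10 were present and all 10 passed the filter on low counts. The libraries fell into 3 groups of 3, all of wild-type lung. EPZ5676 explants were E11.5 lungs kept in culture for 72 h with EPZ5676, control explants were cultured for 72 h without it, and fresh lungs were taken at E11.5. EPZ5676, also called pinometostat, is an inhibitor of DOT1L, the enzyme that methylates histone H3 at K79. The labels give neither its dose nor the vehicle, and they do not say whether replicates were separate embryos, pools or cultures, so p-values refer to the spread among libraries only, part of which may be technical. The whole organ was used, so each value averages over epithelium, mesenchyme, vessels and blood.

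In an epithelial-mesenchymal transition, cells joined in a sheet lose their junctions and polarity and take on the shape and movement of mesenchymal cells. Transcription factors of the Snail, Zeb and Twist families bind E-boxes in junction genes such as Cdh1, which encodes E-cadherin, and repress them. Vimentin, N-cadherin and fibronectin, encoded by Vim, Cdh2 and Fn1, are the classic products read as the mesenchymal state. In the embryonic lung the branching epithelium lies in a thick mesenchyme, and many of these genes are ordinary mesenchymal genes there, read without any cell leaving the epithelium. In bulk tissue, fewer cells of a type and less RNA per cell cannot be told apart.

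Libraries held 6509563 to 9861452 expected counts. Every gene of the lung mesenchyme and lung epithelium marker lists (10 each, such as Tbx4 and Nkx2-1) had reads in every library. Marker levels of several cell types differed between cultured and fresh lung. Summed TPM of 10 lung epithelium markers were 1544 to 2400 in EPZ5676 explants and 1094 to 1754 in control explants, against 438 to 483 in fresh lungs. Sftpc alone gave 501 to 1445 TPM in EPZ5676 explants and 142 to 1111 in control explants, against 8.93 to 16.8 in fresh lungs. The 10 lung mesenchyme markers summed to 1021 to 1314 TPM in EPZ5676 explants and 1113 to 1598 in control explants, against 759 to 880 in fresh lungs. Col1a2 alone gave 367 to 473 TPM in EPZ5676 explants and 381 to 636 in control explants, against 228 to 310 in fresh lungs. Col1a1 gave 302 to 437 and 299 to 497 TPM, against 80.8 to 150. The log2 fold changes against fresh lungs were above 0 for 5 of the 10 markers in EPZ5676 explants and for 7 in control explants. Mean log2 CPM of the 10 markers overlapped between EPZ5676 explants (6.79 to 7.16) and fresh lungs (6.90 to 6.99). The 10 endothelium markers summed to 42.1 to 90.4 TPM in EPZ5676 explants and 24.7 to 118 TPM in control explants, against 267 to 296 TPM in fresh lungs. Control replicate 1 stood apart, with a mean log2 CPM of 3.39 over 10 liver markers, against -0.75 to 0.92 in the other 8 libraries. It was also the highest library for cartilage markers (4.37, against 2.51 to 3.95) and heart muscle markers (2.78, against 0.72 to 2.20). Results for the 10 genes are given without control replicate 1 where its removal changed a call.

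The 10 genes spanned a wide range of levels. By TPM, which corrects for transcript length, Vim was the highest, at 351 ± 46.3 TPM in EPZ5676 explants, 384 ± 73.1 TPM in control explants and 481 ± 26.3 TPM in fresh lungs (SD, n = 3 each). Fn1 came next at 156 ± 15.5 TPM in EPZ5676 explants, 159 ± 34.99 TPM in control explants and 185 ± 15.1 TPM in fresh lungs. Snai2 was the highest of the transcription factors in every group, at 93.2 ± 18.3 TPM in EPZ5676 explants, 90.6 ± 35.8 TPM in control explants and 88.8 ± 21.7 TPM in fresh lungs. Twist1 was the lowest everywhere, at 5.75 ± 1.51 TPM in EPZ5676 explants, 6.78 ± 3.87 TPM in control explants and 6.39 ± 1.30 TPM in fresh lungs. The order of the genes was nearly the same in EPZ5676 and control explants, both running Vim, Fn1, Snai2, Zeb2, Snai1, Cdh2, Prrx1, Zeb1, Twist2 and Twist1. In fresh lungs Cdh2 stood above Zeb2, and Zeb1 stood above Prrx1. Neighbours whose libraries overlapped, so that their order is not settled, were Snai1, Cdh2 and Prrx1, and Zeb1 with Twist2, in EPZ5676 explants. In control explants they were Snai2 with Zeb2, and the run from Snai1 through Cdh2, Prrx1 and Zeb1 to Twist2. In fresh lungs they were Snai2 with Cdh2, Snai1 with Zeb1, and Prrx1 with Twist2.

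**Figure D1:**
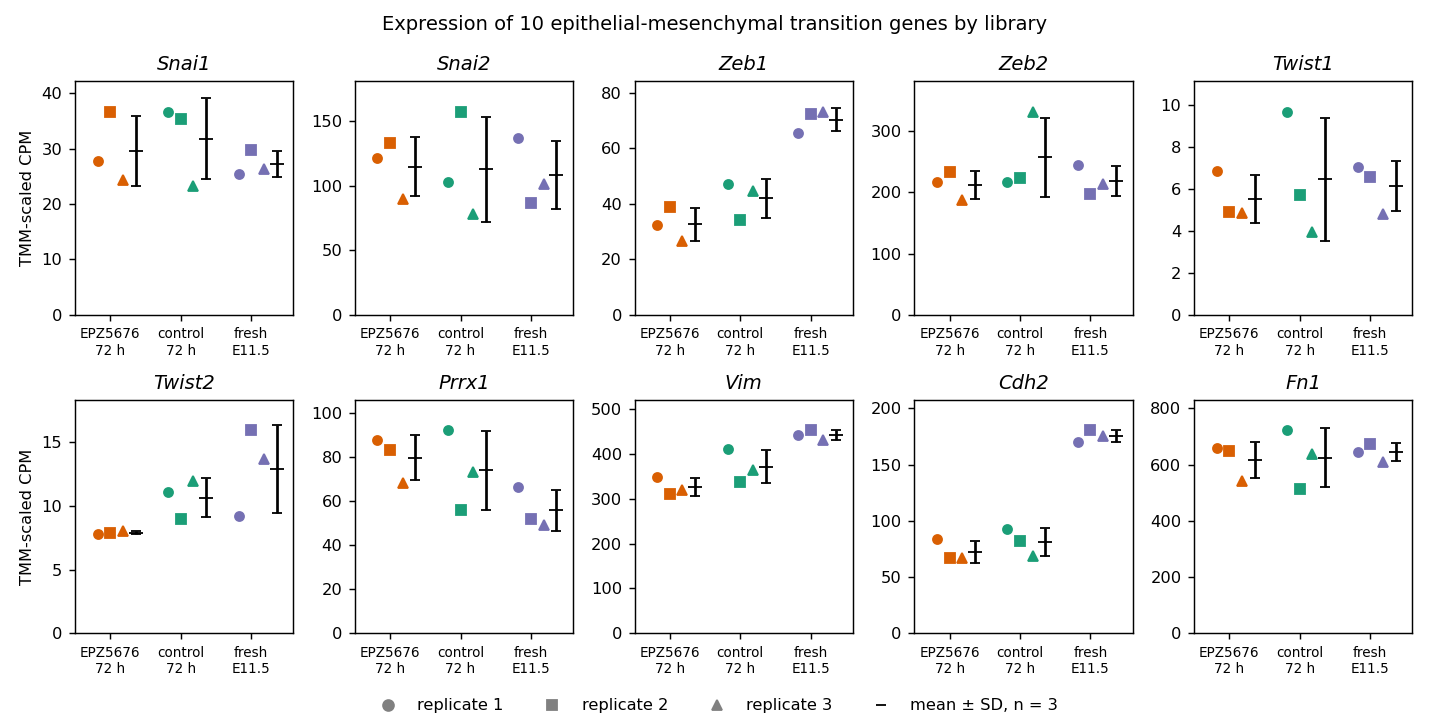
Expression of the 10 genes in CPM, counts scaled to the TMM library size (vertical axes from 0), in EPZ5676 explants, control explants and fresh E11.5 lungs; each mark is 1 library and the bar is the mean ± SD of 3. Cdh2 and Zeb1 lie lower in every cultured library than in every fresh one, while Fn1, Snai1 and Snai2 overlap between all groups.

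These genes passed a test only in the comparisons with fresh lungs. Comparisons used edgeR's quasi-likelihood test on counts, with p-values adjusted over the 15158 genes tested by Benjamini-Hochberg and a threshold of 0.05. In control explants against fresh lungs, 2 of the 10 fell (Cdh2 and Zeb1), beside 16.6% of all genes tested. None rose, beside 21.1% of all genes, and 37.7% of all genes passed in either direction. In EPZ5676 explants against fresh lungs, 4 of the 10 fell (Cdh2, Zeb1, Vim and Twist2), beside 17.9% of all genes. Prrx1 alone rose, beside 22.1% of all genes, and 40.0% of all genes passed in either direction. Neither count is read as particular to these 10 genes. These comparisons share the fresh lungs. In EPZ5676 explants against control explants none of the 10 passed, beside 0% of all genes. At an unadjusted p under 0.05 the edgeR count there was 1 of the 10 and 1052 of all genes (6.94%), and DESeq2 called 67 genes higher and 16 lower, none of them among the 10.

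**Figure D2:**
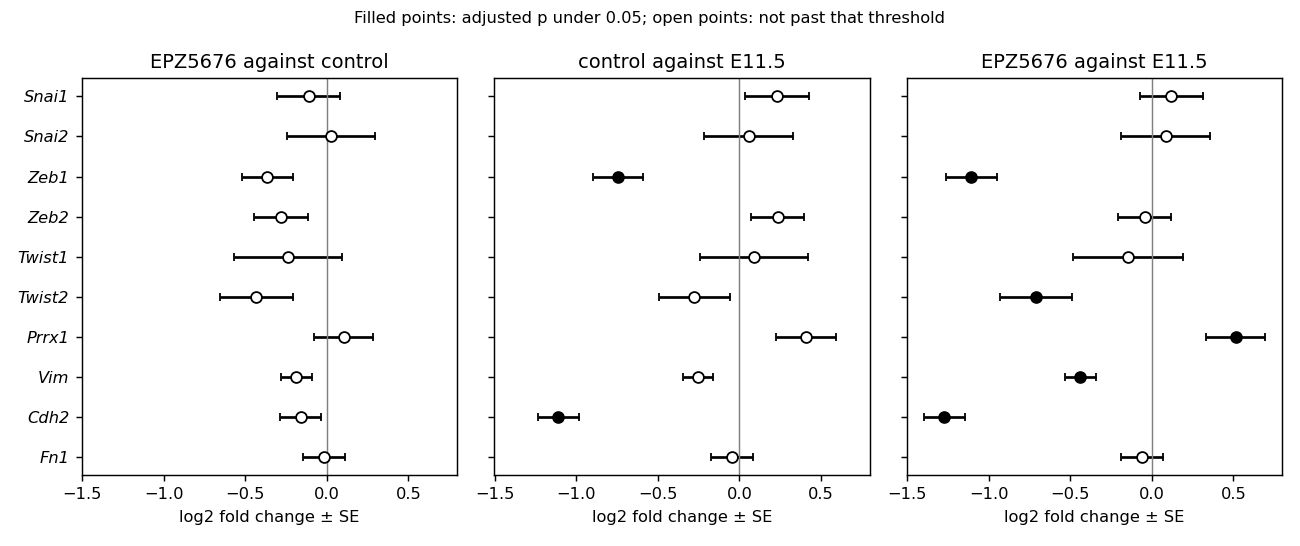
Log2 fold change ± SE (horizontal axes) of each of the 10 genes in the 3 comparisons, from edgeR's quasi-likelihood fit over 9 libraries; filled points have an adjusted p under 0.05. All points of EPZ5676 explants against control explants are open, and Cdh2 and Zeb1 are filled to the left of 0 in both comparisons with fresh lungs.

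Among the products of the mesenchymal state, Cdh2 differed most. Cdh2 encodes N-cadherin, a homophilic adhesion molecule of mesenchymal, neural and cardiac cells, and lies at chr18:16588877-16809246 on the minus strand (GRCm38). It had 84.1, 66.6 and 66.9 CPM in EPZ5676 explants and 92.6, 82.3 and 68.4 CPM in control explants, against 170, 181 and 175 CPM in fresh lungs. All 6 cultured libraries lay below all 3 fresh ones, with no overlap, while the EPZ5676 and control libraries overlapped. The log2 fold change was -1.27 ± 0.13 in EPZ5676 explants against fresh lungs and -1.11 ± 0.12 in control explants against fresh lungs (SE; adjusted p = 3.8e-05 and 0.000111, edgeR). In linear terms Cdh2 in control explants was 0.463 of its fresh level, with a 95% interval of 0.383 to 0.56. EPZ5676 against control gave -0.16 ± 0.12 (adjusted p = 0.865, edgeR).

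The counterpart of Cdh2 is Cdh1, and the exchange of E-cadherin for N-cadherin is a textbook sign of the transition. Cdh1 was chosen for this comparison after its values were seen. It had 118, 71.3 and 111 TPM in EPZ5676 explants and 106, 85.9 and 54.5 TPM in control explants, against 21.3, 19.8 and 19.7 TPM in fresh lungs. Cdh1 rose by 2.33 on the log2 scale in EPZ5676 explants and by 2.05 in control explants, each against fresh lungs. The Cdh2 to Cdh1 ratio in TPM was 0.29 ± 0.0547 in EPZ5676 explants and 0.382 ± 0.0267 in control explants, against 3.4 ± 0.242 in fresh lungs (SD, n = 3 each). N-cadherin mRNA thus exceeded E-cadherin mRNA in every fresh library and lay below it in every cultured one. The ratio was lower in all 3 EPZ5676 libraries (0.293, 0.343 and 0.234) than in all 3 control libraries (0.376, 0.359 and 0.411), a difference chosen after it was seen, with no test. The summed lung epithelium markers given above moved the same way as Cdh1, but Cdh1 is itself on that list. The part of epithelium in the ratio was not tested.

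**Figure D3:**
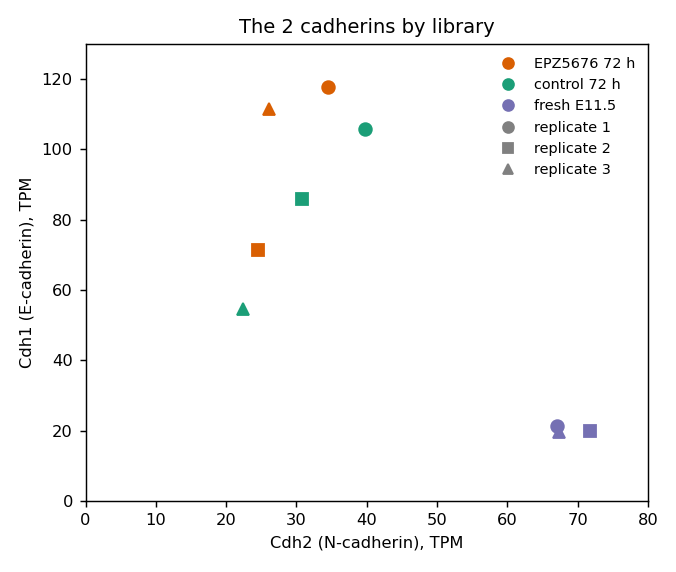
Cdh1 (E-cadherin, vertical axis) against Cdh2 (N-cadherin, horizontal axis), both in TPM, 1 mark per library. The 3 fresh E11.5 libraries sit at about 20 TPM of Cdh1 and 67.1 to 71.8 TPM of Cdh2, and the 6 cultured libraries at 54.5 to 118 TPM of Cdh1 and 22.4 to 39.8 TPM of Cdh2.

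Vim encodes vimentin, the intermediate filament of mesenchymal cells, of endothelium and of many cultured cells, and lies at chr2:13573927-13582826 on the plus strand. It had 347, 310 and 320 CPM in EPZ5676 explants and 410, 337 and 365 CPM in control explants, against 443, 453 and 431 CPM in fresh lungs. Every cultured library was below every fresh one, and the EPZ5676 range overlapped only the lowest control library. Vim fell by 0.44 ± 0.09 on the log2 scale in EPZ5676 explants against fresh lungs (adjusted p = 0.00396, edgeR). In control explants against fresh lungs the change was -0.25 ± 0.09, just short of the threshold (adjusted p = 0.0547, edgeR); it passed without control replicate 1 (-0.33, adjusted p = 0.0192). The 10 endothelium markers, whose cells contain vimentin, were lower in cultured libraries as well: all 10 fell in control explants and 9 of 10 fell in EPZ5676 explants, each against fresh lungs. Their part in the Vim result was not tested.

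Fn1 encodes fibronectin, a matrix glycoprotein that mesenchymal cells lay down and known for its part in branching of lung buds, and lies at chr1:71585520-71653200 on the minus strand. It had 659, 649 and 543 CPM in EPZ5676 explants and 723, 515 and 637 CPM in control explants, against 646, 675 and 611 CPM in fresh lungs. The groups overlapped, and the control range enclosed the other ranges. Its log2 fold changes were -0.02 ± 0.13, -0.04 ± 0.13 and -0.06 ± 0.13 for EPZ5676 against control, control against fresh and EPZ5676 against fresh, with the lowest adjusted p at 0.733 (edgeR). The 95% interval of the EPZ5676 to control ratio ran from 0.811 to 1.2. The 3 products therefore moved apart in culture: Cdh2 fell in both cultured groups, Vim fell in EPZ5676 explants by less than Cdh2, and Fn1 passed in neither.

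The Zeb factors also moved apart. Zeb1 and Zeb2 encode zinc-finger homeodomain repressors that bind E-boxes and are held down in epithelium by the miR-200 family. Zeb1 (chr18:5591860-5775467, plus strand) had 32.5, 38.8 and 26.7 CPM in EPZ5676 explants and 47.2, 34.1 and 44.7 CPM in control explants, against 65.7, 72.3 and 73.3 CPM in fresh lungs. Every cultured library was below every fresh one, and 2 of the 3 EPZ5676 libraries were below all controls. Zeb1 fell by 1.11 ± 0.16 on the log2 scale in EPZ5676 explants and by 0.74 ± 0.15 in control explants, each against fresh lungs (adjusted p = 0.000325 and 0.00365, edgeR). In EPZ5676 against control explants the change was -0.37 ± 0.16, with an unadjusted p of 0.0393 and an adjusted p of 0.691 (edgeR).

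Zeb2 (chr2:44983632-45117395, minus strand) had 216, 233 and 187 CPM in EPZ5676 explants and 217, 224 and 332 CPM in control explants, against 245, 198 and 214 CPM in fresh lungs. The groups overlapped, and control replicate 3 alone lay well above the other 8 libraries. No comparison passed, with log2 fold changes of -0.28 ± 0.16 for EPZ5676 against control, 0.24 ± 0.16 for control against fresh and -0.05 ± 0.16 for EPZ5676 against fresh (lowest adjusted p = 0.282, edgeR). The Zeb2 to Zeb1 ratio in TPM was 4.55 ± 0.317 in EPZ5676 explants and 4.13 ± 1.06 in control explants, against 2.19 ± 0.575 in fresh lungs (SD, n = 3 each). The lowest control library, at 2.94, was only just above the highest fresh one, at 2.81. Zeb1 overlaps the opposite-strand gene Gm10125 and Zeb2 overlaps Zeb2os. The sources do not say whether counting used strand, so their reads cannot be told apart. Gm10125 held 16.4 to 47.4 counts per library, beside 187 to 482 for Zeb1. Gm16147, also opposite Zeb1, held 0 to 7.91. Zeb2os held 23.1 to 47.4 counts, beside 1293 to 2218 for Zeb2. The part of these overlaps in the Zeb1 and Zeb2 values was not tested.

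Neither Snail factor passed in any comparison. Snai1 encodes Snail, a direct repressor of Cdh1, and lies at chr2:167538195-167542814 on the plus strand. It had 27.7, 36.7 and 24.4 CPM in EPZ5676 explants and 36.7, 35.4 and 23.4 CPM in control explants, against 25.5, 29.9 and 26.3 CPM in fresh lungs. The groups overlapped, and both cultured groups were more spread than the fresh one. Its log2 fold changes were -0.11 ± 0.19, 0.23 ± 0.19 and 0.12 ± 0.20 for EPZ5676 against control, control against fresh and EPZ5676 against fresh (lowest adjusted p = 0.382, edgeR). Adding the level of Xist to the fit, as a stand-in for the sex of the embryos, gave 0.39 for EPZ5676 explants and 0.35 for control explants, each against fresh lungs (adjusted p = 0.0455 and 0.0477, edgeR). Xist ran from 0.25 to 284 TPM over the libraries. Fresh replicates 2 and 3 held both Xist (143 and 72.5 TPM) and the Y-linked Ddx3y (20.02 and 30.21 TPM), so Xist does not divide the fresh libraries into females and males. Among cultured libraries, control replicates 1 and 2 and EPZ5676 replicate 2 had 210 to 281 TPM of Xist and at most 0.44 of Ddx3y. Control replicate 3 and EPZ5676 replicates 1 and 3 had at most 0.77 TPM of Xist and 45.4 to 55.7 of Ddx3y. These patterns were thus not evenly split between EPZ5676 and control explants.

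Snai2 encodes Slug, a relative of Snail best known from neural crest, and lies at chr16:14705852-14709385 on the plus strand. It had 122, 133 and 89.6 CPM in EPZ5676 explants and 103, 158 and 77.9 CPM in control explants, against 137, 86.4 and 102 CPM in fresh lungs. Libraries of each group differed widely, and the groups overlapped throughout. Its fold changes were all within 0.09 log2 units of 0, with an SE of 0.27 each (lowest adjusted p = 0.828, edgeR). The 95% interval of the EPZ5676 to control ratio, 0.667 to 1.56, shows how wide a difference these libraries leave possible.

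The Twist factors are basic helix-loop-helix proteins of early mesoderm and its connective tissue. Twist2 (chr1:91801461-91848028, plus strand) had 7.79, 7.85 and 8.01 CPM in EPZ5676 explants and 11.1, 8.94 and 11.9 CPM in control explants, against 9.16, 15.9 and 13.6 CPM in fresh lungs. The 3 EPZ5676 libraries lay together below all other libraries, and the control and fresh ranges overlapped. Twist2 was the only one of the 10 whose EPZ5676 and control libraries did not overlap, beside 10.2% of all genes. Its log2 fold change there was -0.43 ± 0.22 (adjusted p = 0.766, edgeR). Twist2 fell by 0.71 ± 0.22 on the log2 scale in EPZ5676 explants against fresh lungs (adjusted p = 0.0266, edgeR), and in control explants the change was -0.28 ± 0.22 (adjusted p = 0.349, edgeR). The call in EPZ5676 explants was lost without fresh replicate 2 or 3, or without any 1 of the EPZ5676 replicates (adjusted p = 0.0622 to 0.12, edgeR). These values rest on 52.7 to 113 counts per library. Twist2 overlaps the opposite-strand gene Gm29100, which had 8.89, 3.32 and 3.41 counts in EPZ5676 explants and 11.1, 5.1 and 4.6 counts in control explants, against 14.4, 19.3 and 11.2 counts in fresh lungs. Reads of these overlapping genes cannot be told apart, and the part of Gm29100 in the Twist2 call was not tested.

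Twist1 (chr12:33957671-33959829, plus strand) had 6.85, 4.89 and 4.86 CPM in EPZ5676 explants and 9.70, 5.70 and 3.97 CPM in control explants, against 7.06, 6.59 and 4.80 CPM in fresh lungs. Control replicate 1 was the highest library and control replicate 3 the lowest, so the control range enclosed both others. None of its changes passed: on the log2 scale it was -0.24 ± 0.33 for EPZ5676 against control, 0.09 ± 0.33 for control against fresh and -0.15 ± 0.34 for EPZ5676 against fresh (lowest adjusted p = 0.753, edgeR). With 25 to 99 counts per library it was the least precisely measured of the 10.

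Prrx1 encodes a paired-type homeodomain factor of limb, craniofacial and other mesenchyme, and lies at chr1:163245119-163313710 on the minus strand. It had 87.5, 82.9 and 68.1 CPM in EPZ5676 explants and 92.1, 55.9 and 73.3 CPM in control explants, against 66.3, 51.8 and 49.1 CPM in fresh lungs. The lowest EPZ5676 library was only just above the highest fresh one, and the control range overlapped both. Prrx1 rose by 0.51 ± 0.18 on the log2 scale in EPZ5676 explants against fresh lungs (adjusted p = 0.0464, edgeR). In control explants the change was 0.41 ± 0.18 (adjusted p = 0.104, edgeR). The call in EPZ5676 explants was lost without fresh replicate 2 or 3, EPZ5676 replicate 1 or 2 or control replicate 3 (adjusted p = 0.0586 to 0.163, edgeR), with no filter on low counts, with Xist as a covariate (adjusted p = 0.0813) and in limma on TPM. The control comparison passed without control replicate 2 (0.57, adjusted p = 0.0249, edgeR).

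For the question of DOT1L inhibition the interval of each ratio matters more than its p-value. Over the 10 genes the 95% intervals of the EPZ5676 to control log2 fold changes ran from -0.97 to 0.64 at their outermost. A change of 2-fold lay outside each interval, but only just for Twist1 (lower bound -0.97) and Twist2 (-0.93). The intervals hold for each gene alone and for all 9 libraries. With a library left out the Twist1 estimate ran down to -0.49 and the Twist2 estimate to -0.55. Whether 2-fold then stays outside was not tested. Of the 10 estimates, 8 were below 0, with a median of -0.17 beside -0.0038 over all genes. That median was -0.05 without control replicate 1, and -0.09 with Xist as a covariate. The narrowest intervals were those of Vim, 0.761 to 1.01 of control, and Cdh2, 0.739 to 1.08. Zeb1, at 0.776 of control with an interval of 0.611 to 0.985, was the only one whose interval left out 1, before any adjustment for the number of genes. The median was -0.10 in EPZ5676 explants and 0.01 in control explants, each against fresh lungs, beside 0.02 over all genes in each. The control median was -0.23 without control replicate 1 and below 0 with RLE or upper quartile scaling, in DESeq2 and in limma on TPM, so it has no settled sign. The EPZ5676 median ran from -0.22, without EPZ5676 replicate 1, to -0.03, without EPZ5676 replicate 3.

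Single libraries carried part of the spread. Of the 10 genes, 7 were highest within the control group in replicate 1 and 7 were lowest within the EPZ5676 group in replicate 3. The coefficient of variation of CPM had a median of 13.3% in EPZ5676 explants and 20% in control explants, against 9.68% in fresh lungs. Of all genes, 51.4% had no overlap between control and fresh libraries and 57.3% between EPZ5676 and fresh libraries. Of the 10 the counts were 3 (Cdh2, Zeb1 and Vim) and 5 (these and Twist2 and Prrx1).

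**Figure D4:**
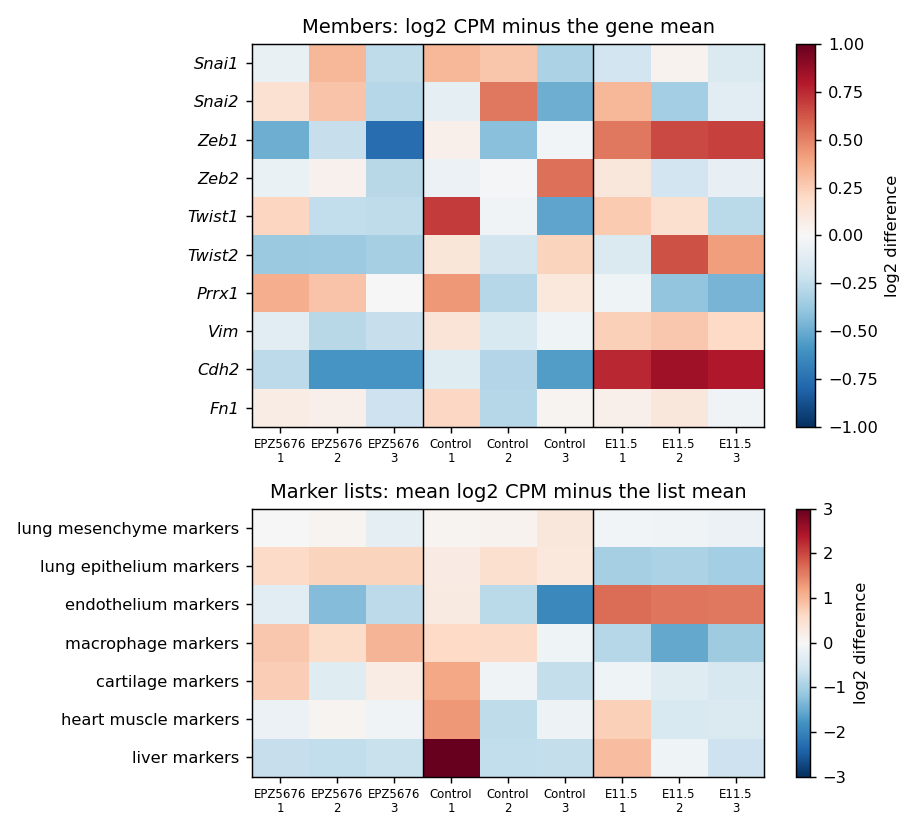
Log2 CPM of the 10 genes minus each gene's mean over the 9 libraries (upper panel) and mean log2 CPM of 7 marker lists minus each list's mean (lower panel), by library, with colour for the log2 difference. Cdh2 and Zeb1 are high in the 3 fresh E11.5 libraries, as are the endothelium markers, and control replicate 1 stands out for liver markers.

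The 10 genes were set beside 4 other lists of the transition, whose counts stand beside the shares of all genes given above: 22.1% rose and 17.9% fell in EPZ5676 explants, and 21.1% rose and 16.6% fell in control explants, each against fresh lungs. Leaving out control replicate 1 moved no list's count of genes that rose or fell by more than 2. Of 15 other factors linked to it, 13 were tested. In EPZ5676 explants against fresh lungs 2 rose and 6 fell, with a median log2 fold change of -0.55. In control explants against fresh lungs 2 rose and 5 fell, with a median of -0.21. Hmga2, an architectural chromatin protein of undifferentiated embryonic cells, fell by 3.37 ± 0.21 in EPZ5676 explants and by 2.94 ± 0.21 in control explants on the log2 scale (adjusted p = 4.57e-06 and 1.16e-05, edgeR). It had 39.0 ± 8.61 TPM in EPZ5676 explants and 51.6 ± 13.4 TPM in control explants, against 406 ± 99.8 TPM in fresh lungs (SD, n = 3 each). Lef1, a transcription factor of Wnt signalling, fell by 2.14 ± 0.19 in EPZ5676 explants and by 1.54 ± 0.18 in control explants, each against fresh lungs (adjusted p = 2.28e-05 and 0.000155, edgeR).

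Foxq1, a forkhead factor, rose by 2.24 ± 0.36 on the log2 scale in EPZ5676 explants and by 1.47 ± 0.37 in control explants, each against fresh lungs (adjusted p = 0.000734 and 0.00997, edgeR). It had 1.71 ± 0.478 TPM in EPZ5676 explants and 0.99 ± 0.217 TPM in control explants, against 0.363 ± 0.103 TPM in fresh lungs (SD, n = 3 each). Foxq1 had only 22 counts over the 3 fresh libraries, 5 to 9 in each. Its scaled count ratio was 4.74 in EPZ5676 explants (95% interval 2.99 to 7.85, counting error only) and 2.8 in control explants (1.71 to 4.73). In EPZ5676 against control explants no factor passed. Tcf12, a partner of Twist proteins, had the smallest p, at -0.31 ± 0.08 (adjusted p = 0.369, edgeR; 0.0326 in DESeq2).

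Among 15 ligands, receptors and signal mediators of the pathways that induce the transition, including the inhibitory Smad7, 7 rose and 3 fell in EPZ5676 explants (median 0.37) and 5 rose and 2 fell in control explants (median 0.25), each against fresh lungs. Smad7 was among those that rose in EPZ5676 explants (0.37, adjusted p = 0.0356, edgeR) and was named after its values were seen. The 7 became 4 without fresh replicate 2 or 3 or EPZ5676 replicate 2, and 4 in limma on TPM. Tgfbr2, the receptor that binds TGF-beta ligands, rose by 1.71 ± 0.12 in EPZ5676 explants and by 1.76 ± 0.12 in control explants on the log2 scale (adjusted p = 5.9e-06 and 7.3e-06, edgeR). Tgfb3, a TGF-beta ligand, rose by 1.72 ± 0.21 in EPZ5676 explants and by 1.61 ± 0.21 in control explants. Pdgfa, a growth factor that epithelium sends to mesenchyme, rose by 2.05 ± 0.24 in EPZ5676 explants and by 1.68 ± 0.24 in control explants. In the same signalling family Tgfbr1, the partner receptor, fell by 0.66 in EPZ5676 explants and by 0.56 in control explants. Tgfbr1 was named after its values were seen. None of the 15 passed between EPZ5676 and control explants, where Met, the receptor for hepatocyte growth factor, had the smallest p (0.30 ± 0.13, adjusted p = 0.69, edgeR).

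The other mesenchymal targets went the opposite way from Cdh2 and Vim. Of 20, 13 rose and 1 fell in EPZ5676 explants (median 0.93) and 15 rose and 1 fell in control explants (median 0.81), each against fresh lungs. Col1a1, a chain of fibrillar collagen, rose by 1.72 ± 0.24 in EPZ5676 explants and 1.85 ± 0.24 in control explants on the log2 scale (adjusted p = 0.000408 and 0.000332, edgeR). Postn, encoding the matrix protein periostin, rose by 1.78 ± 0.21 in EPZ5676 explants and by 1.65 ± 0.21 in control explants. S100a4 had only 6 counts over the 3 fresh libraries, with a scaled count ratio of 7.22 in EPZ5676 explants (95% interval 3.09 to 20.6, counting error only) and 5.41 in control explants (2.27 to 15.7). The member of the list that fell in both was Loxl2, a lysyl oxidase of collagen crosslinking, named after its values were seen (-0.83 in EPZ5676 and -0.93 in control explants). Between EPZ5676 and control explants none passed, and Cd44, a hyaluronan receptor, had the smallest p (0.36 ± 0.11, adjusted p = 0.499, edgeR).

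The genes on the other side, those of the epithelial state, rose almost throughout. Of 20, 19 rose in EPZ5676 explants (median 1.92) and 18 rose in control explants (median 1.62), each against fresh lungs, and none fell. Cldn3, a tight junction claudin, rose by 3.12 ± 0.18 in EPZ5676 explants and 2.89 ± 0.18 in control explants on the log2 scale (adjusted p = 1.84e-06 and 3.63e-06, edgeR). Krt19, a keratin of simple epithelium and mesothelium, rose by 3.75 ± 0.27 in EPZ5676 explants and by 2.80 ± 0.27 in control explants. Rab25, a GTPase of apical recycling, rose by 2.96 ± 0.22 in EPZ5676 explants and by 2.70 ± 0.22 in control explants. The gene that passed in neither was Dsp, a desmosome protein (0.44 in EPZ5676 and 0.13 in control explants). Ovol1 passed in EPZ5676 explants alone, with no test of that difference. Ovol1 had only 0 to 3 counts per fresh library, against 6.12 to 24.04 in EPZ5676 and 2.58 to 16.8 in control explants. Dsp and Ovol1 were named after their values were seen. In EPZ5676 against control explants 19 of 20 estimates were above 0 with a median of 0.28, and none passed in edgeR. The median was 0.11 without control replicate 3 and 0.45 without EPZ5676 replicate 2. Krt19 had the smallest p there, at 0.95 ± 0.23 (adjusted p = 0.306, edgeR; 0.0207 in DESeq2). Krt19 is also one of the 10 mesothelium markers, of which 9 were above 0 in EPZ5676 against control explants, with a median of 0.89 and none past the threshold in edgeR. They summed to 190 to 292 TPM in EPZ5676 explants and 128 to 175 TPM in control explants, against 94.2 to 116 TPM in fresh lungs, and their part in the Krt19 value was not tested. The lists were chosen with earlier results of these libraries known, and 4 of the 20 also stand among the lung epithelium markers.

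**Figure D5:**
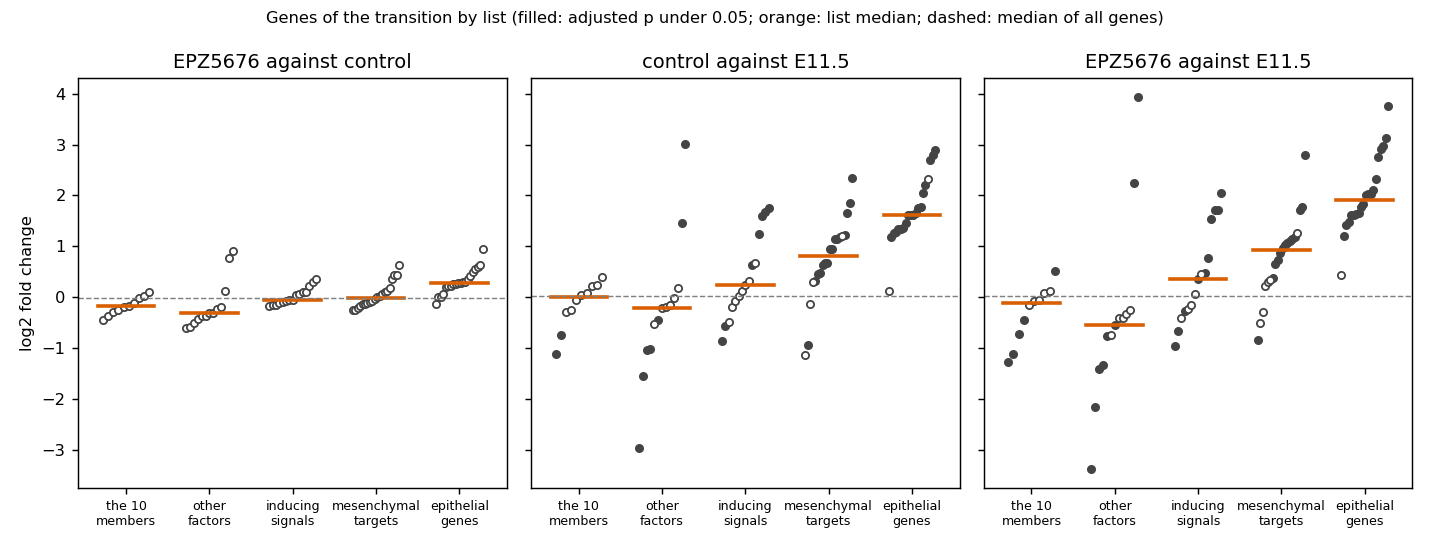
Log2 fold changes (vertical axis) of the genes tested in each of 5 lists in the 3 comparisons; filled points have an adjusted p under 0.05, the orange bar is the list median and the dashed line the median of all genes. Against fresh lungs the epithelial genes lie above 0 (medians 1.92 and 1.62) while the 10 members spread around 0 (medians -0.10 and 0.01).

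Snail and Zeb proteins are known to act on epithelial genes through E-boxes near the start of the gene. The E-box CAGGTG, which reads CACCTG on the other strand, was searched on both strands in the 250 bases before each RefSeq transcription start (GRCm38.p6). It stood in 17.2% of 32851 promoters and in at least 1 promoter of 19.4% of 27025 genes. Of the 10 genes 6 had a promoter in the table (Snai1, Zeb2, Twist1, Twist2, Prrx1 and Vim), and only Snai1 held the motif. Of the 20 epithelial genes 13 had a promoter in the table, and Cdh1 was not among them. Of these 13, 10 held the motif in at least 1 promoter (76.9%). Cldn3, Dsp and Ovol2, described above or on the same list, held none and are not printed. The motif stood in 0 of 9 other factors, 0 of 9 inducing signals and 0 of 11 other mesenchymal targets with a promoter there. These lists were chosen, so the shares are a description and no test. A match is a description of these letters and not a site shown to be bound. Snai1 is printed because it alone of the 10 has the motif, and Vim as a mesenchymal product with none; RefSeq's Vim start lies inside the GENCODE span given above. Crb3, an apical polarity gene, is printed for its 3 matches, and Rab25 as an epithelial gene described above. Crb3 was picked after its matches were seen. Each sequence runs 5′ to 3′ along the gene's own strand and ends at the base before the start, with the motif in capitals.
Snai1, chr2:167537945-167538194, plus strand: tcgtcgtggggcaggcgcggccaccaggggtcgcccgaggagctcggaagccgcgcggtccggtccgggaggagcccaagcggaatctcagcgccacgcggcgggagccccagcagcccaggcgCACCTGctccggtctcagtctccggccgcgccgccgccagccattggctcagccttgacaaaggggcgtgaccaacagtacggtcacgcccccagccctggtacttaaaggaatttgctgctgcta
Vim, chr2:13574061-13574310, plus strand: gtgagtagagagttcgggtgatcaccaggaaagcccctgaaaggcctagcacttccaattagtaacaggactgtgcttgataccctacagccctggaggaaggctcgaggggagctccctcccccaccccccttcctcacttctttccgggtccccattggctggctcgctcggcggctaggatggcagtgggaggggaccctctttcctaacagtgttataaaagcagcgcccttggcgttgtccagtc
Crb3, chr17:57061951-57062200, plus strand: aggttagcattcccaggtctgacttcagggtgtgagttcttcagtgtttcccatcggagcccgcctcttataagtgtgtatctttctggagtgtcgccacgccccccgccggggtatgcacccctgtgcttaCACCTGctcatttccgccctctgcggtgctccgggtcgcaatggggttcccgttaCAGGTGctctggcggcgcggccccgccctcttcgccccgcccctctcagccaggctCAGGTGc
Rab25, chr3:88548280-88548529, minus strand: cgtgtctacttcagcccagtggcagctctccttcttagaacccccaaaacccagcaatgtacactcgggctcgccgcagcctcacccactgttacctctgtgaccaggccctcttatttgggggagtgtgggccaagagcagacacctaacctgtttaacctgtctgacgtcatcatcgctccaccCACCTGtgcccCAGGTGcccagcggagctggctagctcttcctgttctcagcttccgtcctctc
The Snai1 match starts 126 bases before the start site, and those of Rab25 start 64 and 53 bases before it. The Crb3 matches start 118, 63 and 7 bases before the first of its 2 RefSeq starts. Crb3 had 22.4 ± 2.2 TPM in EPZ5676 explants and 19.3 ± 4.77 TPM in control explants, against 5.45 ± 0.191 TPM in fresh lungs (SD, n = 3 each). Rab25 had 28.2 ± 7.37 TPM in EPZ5676 explants and 22.9 ± 3.98 TPM in control explants, against 3.43 ± 0.422 TPM in fresh lungs.

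For each of the 10 genes the 2 others most like it were found among 12854 tested genes by the root mean square difference of log2 CPM, each centred on its own mean, over the 9 libraries. Cdh2 was closest to Gpc2 (0.0466) and Cald1 (0.067), and Vim to Bcl9 (0.0429) and Fbxo22 (0.0432). Zeb1 was closest to Scube3 (0.102) and Rnf144a (0.134), and Zeb2 to Dlc1 (0.0848) and Pcf11 (0.0944). Snai1 was closest to Fdxr (0.0675) and Fkbpl (0.102), and Snai2 to Zbtb3 (0.159) and Zfp623 (0.167). Twist1 was closest to Acsf3 (0.102) and Arhgap4 (0.162), and Twist2 to Apcdd1 (0.14) and Phc1 (0.141). Prrx1 was closest to Meg3 (0.0927) and Spns1 (0.119), and Fn1 to Ipo4 (0.0739) and Hsf1 (0.0749). None of these 20 neighbours was itself one of the 10. Within the 10, Vim and Fn1 were nearest to each other (0.178), and Cdh2 and Zeb1 were each other's nearest (0.266). The measure is small between any genes that vary little, so it need not mean a shared pattern. Fn1 was also the nearest of the 10 to Snai1, Zeb2, Twist1 and Prrx1.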

How the data were processed

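Total RNA was extracted with TRIzol and 1 ug went into libraries of the VAHTS Universal V8 kit, per the labels' protocols. RSEM, Bowtie2 and the build mm10 are named in the submitters' processing notes. The authors deposited expected counts per gene (estimated, rounded here to whole numbers) and TPM, used as deposited for levels between genes; these estimates divide reads between genes that share sequence. Depth was 6509563 to 9861452 expected counts, and intervals of count ratios cover counting error only. All 55286 identifiers matched GENCODE M21 (GRCm38), the source of gene positions; promoters come from RefSeq (GRCm38.p6).

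All 9 libraries entered 1 fit by group (edgeR 4.0.16, robust quasi-likelihood test, legacy method, R 4.3.3) after filterByExpr (minimum count 10) and TMM scaling, with 6 residual degrees of freedom. Tests were two-sided with Benjamini-Hochberg adjustment, at a threshold of 0.05. SE and 95% intervals came from the F statistic. The code was tested on simulated data.

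The 10 genes and the lists were chosen with earlier results of these data known. Named from each other list were up to 3 genes with the largest change among those that passed, or that with the smallest p, except 1 gene of the other factors that is not reported here; likeness used genes with a mean of at least 1 TPM. Alternatives were other scalings, filters, sample sets, thresholds, a replicate block, Xist as a covariate, DESeq2 1.42.0, limma 3.58.1 on log2(TPM + 1) and log2(TPM + 0.1), and each library left out.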

Additional observations from a re-analysis of the deposited data

How the results depend on the processing

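Of the members called against fresh lungs, Cdh2 and Zeb1 passed under every alternative run, in both comparisons, except that Zeb1 in control explants did not reach the 2-fold limit. That limit left 2 members and 2515 genes called in EPZ5676 explants and 1 member and 2255 genes in control explants, each against fresh lungs. The number of members called in EPZ5676 explants against fresh lungs was 3 to 5 with a library left out. In EPZ5676 against control explants no alternative called a member; over all genes DESeq2 called 83, the fit with no filter 76, and fits with a library left out 0 to 26 (26 without EPZ5676 replicate 2). The labels do not say whether replicate numbers pair the libraries. Deviations of same-numbered EPZ5676 and control libraries correlated at 0.457, 0.0789 and -0.0468 for replicates 1, 2 and 3, which does not settle it. A replicate block called 1 gene and no member in EPZ5676 against control explants, and 4 members in control explants against fresh lungs (Prrx1 and Vim added). Vim there also passed with RLE and upper quartile scaling, in DESeq2 and with a minimum of 50 counts (adjusted p = 0.0174 to 0.0467).

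Directions turned only for members that did not pass. With Xist as a covariate, Snai1 was 0.0447 in EPZ5676 against control explants and Twist1 was 0.11 in EPZ5676 explants against fresh lungs. In limma on TPM, control explants against fresh lungs gave -0.0239 and -0.0249 for Snai2 and -0.0284 and -0.049 for Twist1. With a library left out, log2 fold changes of EPZ5676 against control ran from -0.29 to 0.0081 for Snai1, -0.18 to 0.34 for Snai2, -0.49 to 0.20 for Twist1, -0.064 to 0.30 for Prrx1 and -0.15 to 0.10 for Fn1. Those of control against fresh ran from -0.26 to 0.26 for Snai2, -0.34 to 0.34 for Twist1 and -0.16 to 0.074 for Fn1. Those of EPZ5676 against fresh ran from -0.059 to 0.23 for Snai1, -0.068 to 0.28 for Snai2, -0.12 to 0.030 for Zeb2 and -0.11 to 0.014 for Fn1. The causes were not tested.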

Other observations

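The expected count per TPM of Zeb1, which follows the mix of transcript lengths the estimate assigns to the gene, varied 1.33-fold over the 9 libraries, against 1.03-fold for Snai1, Snai2, Twist1, Twist2 and Cdh2. Relative to each library's median gene that of Zeb1 was 2.14, 2.2 and 1.65 in EPZ5676 explants and 1.74, 2.1 and 1.81 in control explants, against 2.19, 1.65 and 1.98 in fresh lungs. That of Fn1 was 2.72, 2.52 and 2.57 in EPZ5676 explants and 2.61, 2.55 and 2.40 in control explants, against 2.25, 2.36 and 2.41 in fresh lungs. The TPM of these genes, and ratios made from them, carry this. Their edgeR fold changes come from counts.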
